A study of Homo sapiens with 6 samples.

Results

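Bone marrow homing and egress genes were followed in KMM1, a cell line established from human multiple myeloma: 10 genes, CXCR4, CXCL12, CXCR5, CCR2, CCR10, S1PR1, S1PR2, S1PR4, SELPLG and GPR183, chosen by name from 57290 genes in the deposited tables. All 10 were found, each under a single gene identifier. The study compared KMM1 cells transduced with a lentivirus carrying TAZ, a transcriptional co-activator of the Hippo pathway encoded by WWTR1, with KMM1 cells transduced with the empty vector WPI. RNA was taken 4 days after transduction, and polyadenylated RNA was sequenced in 3 TAZ and 3 WPI libraries of the same cell line. The labels give no promoter for the TAZ vector and do not say whether the 3 libraries of a group are separate cultures. The spread behind each p-value is therefore that between libraries and may be technical.

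Plasma cells reach the bone marrow and stay there through a balance of retaining and releasing signals. CXCL12, a chemokine made by marrow stroma, holds cells through its receptor CXCR4, and CCR10 answers the epithelial chemokines CCL27 and CCL28. Sphingosine-1-phosphate (S1P), which is abundant in blood, draws cells out through S1PR1, whereas S1PR2 signals against migration. SELPLG (PSGL-1) carries the sugars by which selectins slow a cell on the vessel wall, and GPR183 (EBI2) follows oxysterols inside lymphoid tissue.

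CXCR4 was the member that changed most. Its level fell to 5.60 ± 0.825 in the TAZ libraries, against 33.9 ± 11.8 in the WPI libraries (scaled TPM, SD, n = 3 each), so that the WPI mean was 6.06 times the TAZ mean. CCR10, the plasma cell chemokine receptor, and SELPLG also had lower values in each TAZ library than in any WPI library, but neither passed the test. S1PR1 and S1PR2 were measured in every library, their groups overlapped and neither passed the test. The means of S1PR2 were 11.85 in TAZ and 15.8 in WPI. CXCR5, S1PR4, GPR183 and the ligand CXCL12 were at or near 0 throughout. TPM is a transcript level corrected for length and for the size of the library, and here it is scaled between libraries as described under the processing.

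The sequences around the starts of CXCR4 are shown because the reads of this gene lay almost entirely on a transcript that starts inside the gene. RefSeq windows (GRCh38.p14) run from 250 bases before to 50 bases after a start, and 8 of the 10 members had at least 1, giving 10 windows, 3 of them for CXCR4. CCR10 and SELPLG had no entry. The 3 CXCR4 windows are on the minus strand, and the outermost and innermost are shown, 5′ to 3′, because the starts of the 2 transcripts described here lie in them; the middle one (chr2:136117820-136118119) is not shown. In the sequences below, capitals mark matches to TATAAA, to the TEAD motif GGAATG or to the AP-1 motif TGANTCA, each on either strand.
CXCR4 outer start, chr2:136118100-136118399: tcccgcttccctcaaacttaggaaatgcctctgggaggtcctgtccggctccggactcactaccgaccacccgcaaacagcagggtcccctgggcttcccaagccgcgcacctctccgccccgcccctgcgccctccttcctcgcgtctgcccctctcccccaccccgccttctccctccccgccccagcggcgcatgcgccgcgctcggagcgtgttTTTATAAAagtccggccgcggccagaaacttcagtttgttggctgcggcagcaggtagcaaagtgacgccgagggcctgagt
CXCR4 inner start, chr2:136116186-136116485: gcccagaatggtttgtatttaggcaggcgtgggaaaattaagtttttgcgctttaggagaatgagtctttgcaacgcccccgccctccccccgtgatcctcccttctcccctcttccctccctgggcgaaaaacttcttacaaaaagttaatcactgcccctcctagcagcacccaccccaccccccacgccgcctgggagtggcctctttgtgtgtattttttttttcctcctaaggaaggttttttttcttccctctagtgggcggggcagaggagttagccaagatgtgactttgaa
CXCR5, chr11:118893142-118893441, plus strand: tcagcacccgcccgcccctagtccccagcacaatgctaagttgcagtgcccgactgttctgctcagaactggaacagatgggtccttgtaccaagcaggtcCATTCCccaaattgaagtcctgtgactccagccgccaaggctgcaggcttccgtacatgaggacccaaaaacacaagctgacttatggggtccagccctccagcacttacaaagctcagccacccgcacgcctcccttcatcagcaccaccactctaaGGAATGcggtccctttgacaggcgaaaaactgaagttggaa
The outer CXCR4 window holds the start of ENST00000241393.3, and the inner window that of ENST00000409817.1, by a match of the first bases of those transcripts. The capitals in the outer window are TATAAA overlapping its own reverse complement TTTATA, and the middle and inner windows hold none of the 3 motifs. The TEAD motif was present in 1 of the 10 member windows, that of CXCR5, at bases 102 and 260 from its 5′ end (the first as CATTCC), against 14.03% of all 35116 windows. The AP-1 motif was in 1 of 10, that of CCR2, against 7.71% of all windows, and TATAAA was in 2 of 10, those of CXCR4 and GPR183, against 11.53%. TEAD is the family of factors through which TAZ acts. A match is a match of letters only, and no match says nothing about binding elsewhere.

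The libraries held 1130 to 1608 megabases of aligned sequence in the TAZ group and 1100 to 2033 megabases in the WPI group. WWTR1, the gene delivered, had 365, 137 and 145 scaled TPM in TAZ replicates 1, 2 and 3, against 2.35, 1.21 and 1.40 in WPI replicates 1, 2 and 3, so the labels held in every library. Of the plasma cell markers, all 7 were present in both groups, with a summed level of 1040 to 1235 in TAZ and 999 to 1794 in WPI. Outside WPI replicate 2, most of that sum was XBP1, so the sum says little about the other markers. XBP1 was at 841, 619 and 736 in TAZ, against 908, 157 and 1051 in WPI. The lowest WPI sum was that of replicate 2, where XBP1 was lowest. SDC1 (CD138) and IRF4 passed the test, both lower in TAZ. PRDM1 had 66.4, 66.4 and 63.9 in TAZ, against 75.9, 79.5 and 95.35 in WPI, without overlap (limma adjusted p = 0.324). The groups overlapped for CD38, TNFRSF17, XBP1 and MZB1. Of 5 epithelial markers, KRT8 and KRT18 rose and the sum was 957 to 2293 in TAZ against 194 to 322 in WPI. Most of that sum was KRT8, at 2217, 864 and 931 in TAZ, against 120, 171 and 210 in WPI. CDH1 went the other way, at 17.1, 28.4 and 30.2 in TAZ, against 52.2, 57.0 and 36.95 in WPI (limma adjusted p = 0.161). The groups overlapped for EPCAM, with means of 49.1 in TAZ and 53.3 in WPI, and KRT19 was at most 0.113 in any library. Of 6 stromal markers, LUM and DCN rose and the summed level was 37.8 to 44.7 in TAZ against 2.14 to 2.83 in WPI. Most of the TAZ sum was LUM, at 35.6, 38.35 and 31.3 in TAZ, against 0.0225, 0.0641 and 0.221 in WPI. DCN was at 3.66, 3.05 and 3.45 in TAZ, against 0.201, 0.138 and 0 in WPI. Most of the WPI sum was COL1A1, so the sum says little about the other markers. COL1A2 and COL3A1, too low to be tested, were also higher in each TAZ library than in any WPI library, with means of 0.775 in TAZ and 0.0699 in WPI for COL1A2 and of 0.3955 in TAZ and 0.0512 in WPI for COL3A1. The groups overlapped for COL1A1, at 1.596 to 1.98 in TAZ and 1.43 to 2.04 in WPI, and for PDGFRB, which stayed under 1. The 4 T and NK markers summed to 0.478 to 0.753 in TAZ and 0.451 to 1.14 in WPI, with NKG7 listed at 0 in all 6, and the 4 myeloid markers to 1.47 to 1.90 in TAZ and 3.45 to 5.24 in WPI, where CD14 passed the test as lower in TAZ and LYZ was listed at 0 in 5 of 6 libraries. The part of these markers in the results below was not tested. In bulk RNA, fewer cells that express a gene and less RNA per cell cannot be told apart.

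The test was limma on log2(scaled TPM + 1) over the 19390 genes averaging 1 TPM or more, with p adjusted by Benjamini-Hochberg over all of them. Of the 10 members, 5 were abundant enough to be tested: CXCR4, CCR10, S1PR1, S1PR2 and SELPLG. At an adjusted p of 0.05, 1 of the 5 was lower in TAZ and 0 were higher, against 0.964% of all tested genes lower, 2.25% higher and 3.21% in either direction. At an unadjusted p of 0.05, 3 of the 5 passed, against 18.0% of all tested genes. The median log2 difference of the 5 was -0.47, beside -0.05 over all tested genes, which became 0.17 when the libraries were not scaled. In 3 of the 5 (CXCR4, CCR10 and SELPLG) the TAZ libraries all lay below the WPI libraries, against 14.8% of all tested genes in that direction and 24.9% in either direction.

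**Figure D1:**
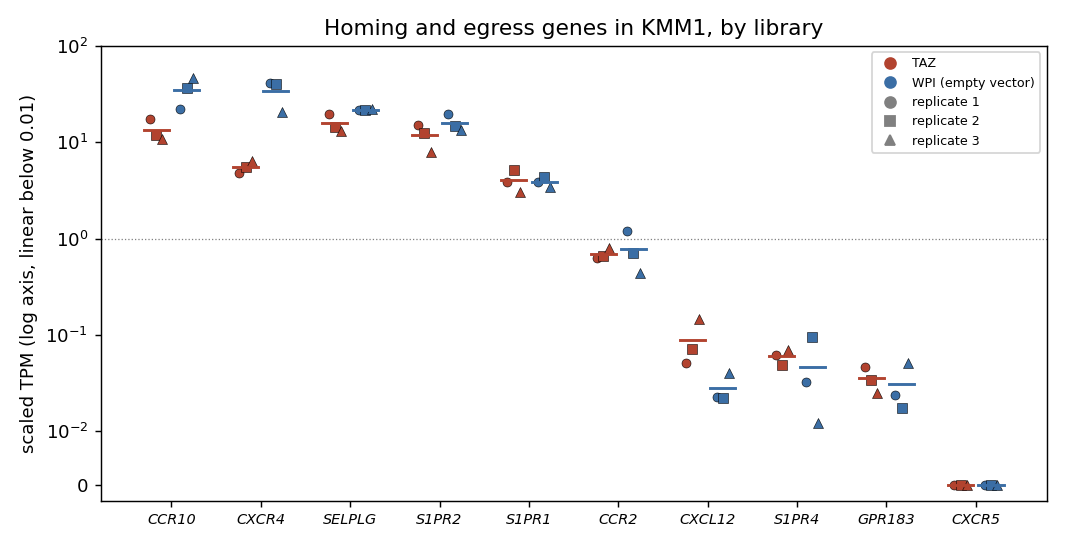
Level of each of the 10 members in each library, as scaled TPM on a log axis that is linear below 0.01; TAZ libraries are red and to the left, WPI libraries blue and to the right, symbols mark the replicate and bars the group mean. The dotted line at 1 TPM separates the 5 tested members from the 5 below it, and CXCR4 shows the widest gap between the groups, with TAZ values of 4.79 to 6.44 and WPI values of 20.4 to 41.6.

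CXCR4 (ENSG00000121966.6, chromosome 2, 136871919 to 136875735, minus strand, hg19) encodes the receptor that keeps plasma cells and myeloma cells in CXCL12-rich marrow. It stood at 4.79, 5.58 and 6.44 scaled TPM in TAZ replicates 1, 2 and 3, against 41.6, 39.8 and 20.4 in WPI replicates 1, 2 and 3. The TAZ libraries lay close together, and WPI replicate 3 was the lowest control while still above each TAZ library. The log2 difference was -2.35 ± 0.30 (SE; 95% interval -3.06 to -1.63; limma adjusted p = 0.00965; lower in 3 of 3 TAZ libraries). Without WPI replicate 3, which stood lowest, the log2 difference was -2.68 (adjusted p = 0.00257). Without TAZ replicate 2 it was -2.35 with an adjusted p of 0.0547, so that the call was lost at an equal size, and over all 13 other settings the adjusted p ran from 0.00257 to 0.0748. No gene overlapped CXCR4 in the annotation of the files.

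The bases behind these values were 7402, 6710 and 8834 aligned bases in the TAZ libraries, against 69256, 76302 and 20917 in the WPI libraries. They lay on ENST00000409817.1, a transcript of 1 exon (136871919 to 136873813, 1895 bases) that extends 331 bases upstream of the exon it shares with the other transcripts. It held 98.8% of the CXCR4 level in WPI replicate 1 and 100% in the other 5 libraries. Read depth over that exon was 3.91, 3.54 and 4.66 in TAZ, against 36.2, 40.3 and 11.04 in WPI. The short outer exon of ENST00000241393.3 (136875616 to 136875735), the annotated first exon of the 2-exon form, had a depth of 3.34 in WPI replicate 1 and was listed at 0 in the other 5 libraries. The files give 1 depth for the whole exon of 1895 bases, so reads on the shared part and on the 331 bases cannot be told apart, and the use of the inner start shown above was not tested.

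CXCL12, the ligand of CXCR4 (ENSG00000107562.12, chromosome 10, 44793038 to 44881941), was barely covered. It had 0.0506, 0.0723 and 0.145 scaled TPM in TAZ, against 0.0226, 0.0224 and 0.0402 in WPI. The TAZ libraries lay above the WPI libraries, but the values rest on 74 to 168 aligned bases in TAZ and 55 to 70 in WPI. The exact two-sided permutation p was 0.1, the smallest that 3 against 3 libraries allow, and at this depth a difference was not detectable. The other gene annotated within it, AL137026.1, was listed at 0 in every library. ACKR3, a scavenging receptor of CXCL12 that was not tested because of its low mean, had 1.49, 1.36 and 0.828 in TAZ, against 0.0168, 0.0226 and 0.0407 in WPI (exact permutation p = 0.1). It was picked out after its values were seen.

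CCR10 (ENSG00000184451.5, chromosome 17, 40830907 to 40835935, minus strand) had the highest mean of the 10 members. It stood at 17.3, 11.8 and 10.9 scaled TPM in TAZ, against 22.1, 36.7 and 46.4 in WPI. The groups did not overlap, but TAZ replicate 1 and WPI replicate 1 lay close to each other and the WPI libraries spread widely. The means were 13.3 ± 3.44 in TAZ and 35.1 ± 12.2 in WPI (SD, n = 3), with a log2 difference of -1.30 ± 0.31 (95% interval -2.05 to -0.55; limma adjusted p = 0.0965). Without WPI replicate 1 the difference was -1.59 and passed (adjusted p = 0.0457), and in the other 13 settings it did not. Its ligands CCL27 and CCL28, both epithelial chemokines, were not tested: CCL27 was listed at 0 in all 6 libraries, and CCL28 had 0.516, 0.656 and 1.10 in TAZ, against 0.518, 0.814 and 0.362 in WPI.

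CCR10 shares ground with CNTNAP1, a contactin-associated protein gene on the opposite strand, and the sources used here do not give whether reads were assigned by strand. The main transcript ENST00000332438.4, whose large exon (40830907 to 40832635) does not reach CNTNAP1, had 15.4, 8.63 and 8.66 scaled TPM in TAZ, against 16.7, 33.6 and 42.9 in WPI. The second transcript, ENST00000591765.1, has an exon (40834339 to 40835082) that overlaps CNTNAP1 and had 1.87, 3.15 and 2.27 in TAZ, against 5.45, 3.15 and 3.55 in WPI. All of its depth lay on that exon, at 3.97, 5.21 and 4.29 in TAZ, against 12.5, 8.33 and 5.02 in WPI. CNTNAP1 itself had 14.2, 14.5 and 14.2 in TAZ, against 47.3, 38.2 and 20.2 in WPI (limma adjusted p = 0.124). On the main transcript alone, an alternative chosen after the data were seen, the log2 difference of CCR10 was -1.38 ± 0.39 (limma adjusted p = 0.143). The order of the WPI libraries was opposite in the main transcript and in CNTNAP1: replicate 3 was the highest control for the one and the lowest for the other. The antisense gene CTD-3193K9.4 was listed at 0 in every library and CTD-3193K9.3 had 0, 0.808 and 0.744 in TAZ, against 1.97, 0 and 0 in WPI.

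**Figure D2:**
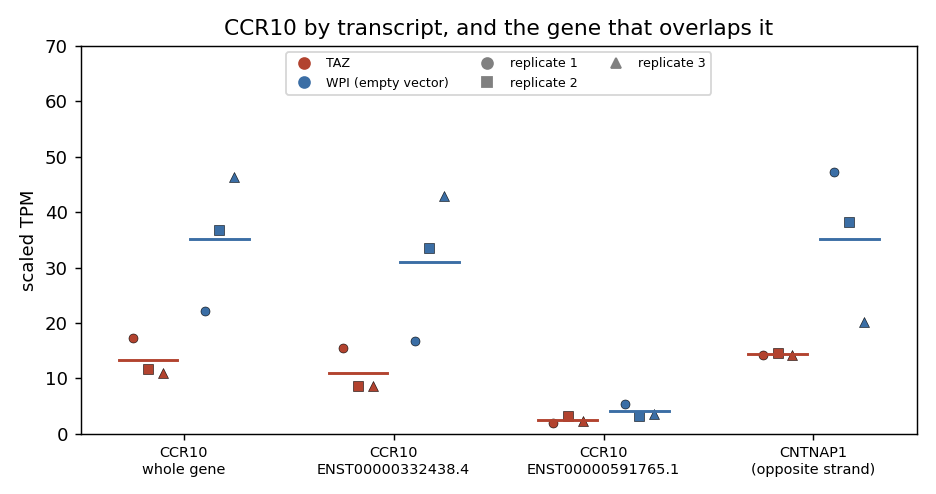
Scaled TPM of CCR10 as a whole gene, of its main transcript, of the transcript whose exon overlaps CNTNAP1, and of CNTNAP1, in each TAZ (red, left) and WPI (blue, right) library; bars are group means. The gap between the groups is carried by the main transcript, with means of 10.9 in TAZ and 31.1 in WPI, while the overlapping transcript stays at or below 5.45 in every library.

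CXCR5 and CCR2 showed little. CXCR5 (ENSG00000160683.4, chromosome 11, 118754475 to 118768508), the receptor for CXCL13 that brings B cells into follicles, was listed at 0 in all 6 libraries. Its neighbour BCL9L, a Wnt co-activator gene that overlaps it on the opposite strand, was at 16.2, 12.2 and 11.1 in TAZ, against 4.15, 4.08 and 5.21 in WPI, and rose (limma adjusted p = 0.0165). The other overlapping gene, RP11-158I9.5, stayed under 0.05 in every library. CXCL13 was at 0.0754, 0 and 0.167 in TAZ and was listed at 0 in all 3 WPI libraries.

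CCR2 (ENSG00000121807.5, chromosome 3, 46395225 to 46402419) is a receptor for CCL2 and related monocyte chemokines. It had 0.632, 0.666 and 0.794 scaled TPM in TAZ, against 1.20, 0.705 and 0.443 in WPI, so the TAZ values lay within the range of the WPI values (exact permutation p = 0.8). Its mean was under 1 TPM and it was not tested. It lies in a cluster of chemokine receptor genes, of which CCR3, picked out after its values were seen, had lower values in TAZ. CCR3 was at 3.78, 2.36 and 4.86 in TAZ, against 42.6, 37.5 and 21.6 in WPI (limma adjusted p = 0.00577). The ligand CCL2 had 0.409, 0.0459 and 0.421 in TAZ, against 0.884, 1.18 and 0.320 in WPI. The remaining CCR2 ligands on the list, CCL7, CCL8 and CCL13, were at or under 0.07 in every library, and none of the 7 ligand genes was tested.

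S1PR1 (ENSG00000170989.8, chromosome 1, 101702444 to 101707074) is the receptor that leads lymphocytes out of tissue along the S1P gradient. It had 3.87, 5.14 and 3.07 scaled TPM in TAZ, against 3.89, 4.39 and 3.45 in WPI. The groups overlapped, and the TAZ libraries held both the highest and the lowest value. The log2 difference was 0.02 ± 0.21 (95% interval -0.48 to 0.52; limma adjusted p = 0.973), and its sign turned when either TAZ replicate 2 (-0.14) or WPI replicate 3 (-0.06) was left out. S1PR1 was read from 1 of its 3 annotated transcripts, ENST00000305352.6, in every library, on 5428 to 12920 aligned bases.

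S1PR2 (ENSG00000267534.1, chromosome 19, 10334520 to 10341948, minus strand), which restrains migration through G12 and G13 proteins, had 15.1, 12.6 and 7.87 scaled TPM in TAZ, against 19.5, 14.7 and 13.3 in WPI. The groups overlapped, with TAZ replicate 3 below all other libraries. The log2 difference was -0.41 ± 0.27 (95% interval -1.06 to 0.24; limma adjusted p = 0.461). Its coding exon (10334520 to 10335623) had a depth of 13.1, 8.39 and 6.04 in TAZ, against 18.1, 15.7 and 7.65 in WPI, and its outer exon of 69 bases a depth of at most 1.13. DNMT1, a DNA methyltransferase gene whose annotation spans S1PR2 on the same strand, was at 42.7, 39.7 and 63.1 in TAZ, against 54.5, 69.4 and 43.3 in WPI. The adjacent gene CTD-2369P2.2 was at 19.4, 17.6 and 14.9 in TAZ, against 23.6, 21.4 and 20.2 in WPI (limma adjusted p = 0.370), and MIR4322 stayed under 0.6 in every library.

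S1PR4 (ENSG00000125910.4, chromosome 19, 3172344 to 3180329), a lymphoid and myeloid S1P receptor, had 0.0616, 0.0489 and 0.0692 scaled TPM in TAZ, against 0.0323, 0.0962 and 0.0122 in WPI (exact permutation p = 0.6). These values rest on 10 to 155 aligned bases. GPR183 (ENSG00000169508.6, chromosome 13, 99946784 to 99959659) had 0.0470, 0.0343 and 0.0252 in TAZ, against 0.0239, 0.0174 and 0.0513 in WPI (exact permutation p = 0.7), on 30 to 65 aligned bases. In both genes the groups overlapped and a difference was not detectable at this depth. UBAC2, which surrounds GPR183 on the opposite strand, was at 18.4, 15.0 and 14.4 in TAZ, against 12.6, 13.5 and 13.04 in WPI.

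SELPLG (ENSG00000110876.8, chromosome 12, 109015686 to 109027735, minus strand) was the most even member among the controls. It had 19.7, 14.3 and 13.1 scaled TPM in TAZ, against 21.6, 21.7 and 22.3 in WPI. All 3 TAZ libraries lay below the controls, TAZ replicate 1 only narrowly. The means were 15.7 ± 3.50 in TAZ and 21.9 ± 0.365 in WPI (SD, n = 3), and the log2 difference was -0.47 ± 0.19 (95% interval -0.93 to -0.02; limma adjusted p = 0.264). The whole level lay on the transcript ENST00000550948.1, and within it on the large exon (109016053 to 109018088), with its outer exon listed at 0 in every library. The antisense gene RP11-689B22.2 had 0, 0 and 1.70 in TAZ, against 2.74, 1.20 and 0.675 in WPI.

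The order of the members changed between the groups. From the highest mean down, the TAZ libraries had SELPLG, CCR10, S1PR2, CXCR4 and S1PR1, with overlapping ranges among SELPLG, CCR10 and S1PR2 and between CXCR4 and S1PR1. The WPI libraries had CCR10, CXCR4, SELPLG, S1PR2 and S1PR1, of which CCR10, CXCR4 and SELPLG had overlapping ranges and the others did not overlap their neighbours. CXCR4 thus stood next to S1PR1 in TAZ, with means of 5.60 scaled TPM for CXCR4 and 4.03 for S1PR1, and clear above it in WPI, with means of 33.9 for CXCR4 and 3.91 for S1PR1. Over all 57290 genes, 91.2% had a lower mean level than CCR10, 89.6% a lower one than CXCR4 and 76.3% a lower one than S1PR1.

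A wider list of 62 homing and egress genes, without the 10 members, gave 37 tested genes, of which 3 rose (ITGB2, ITGB7 and CCR1) and 2 fell (PIK3CG and KLF2), with a median log2 difference of 0.02, beside -0.05 over all tested genes. That is 3 of 37 higher and 2 of 37 lower, beside the shares of all tested genes given above. The other 25 genes were too low to be tested.

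**Figure D3:**
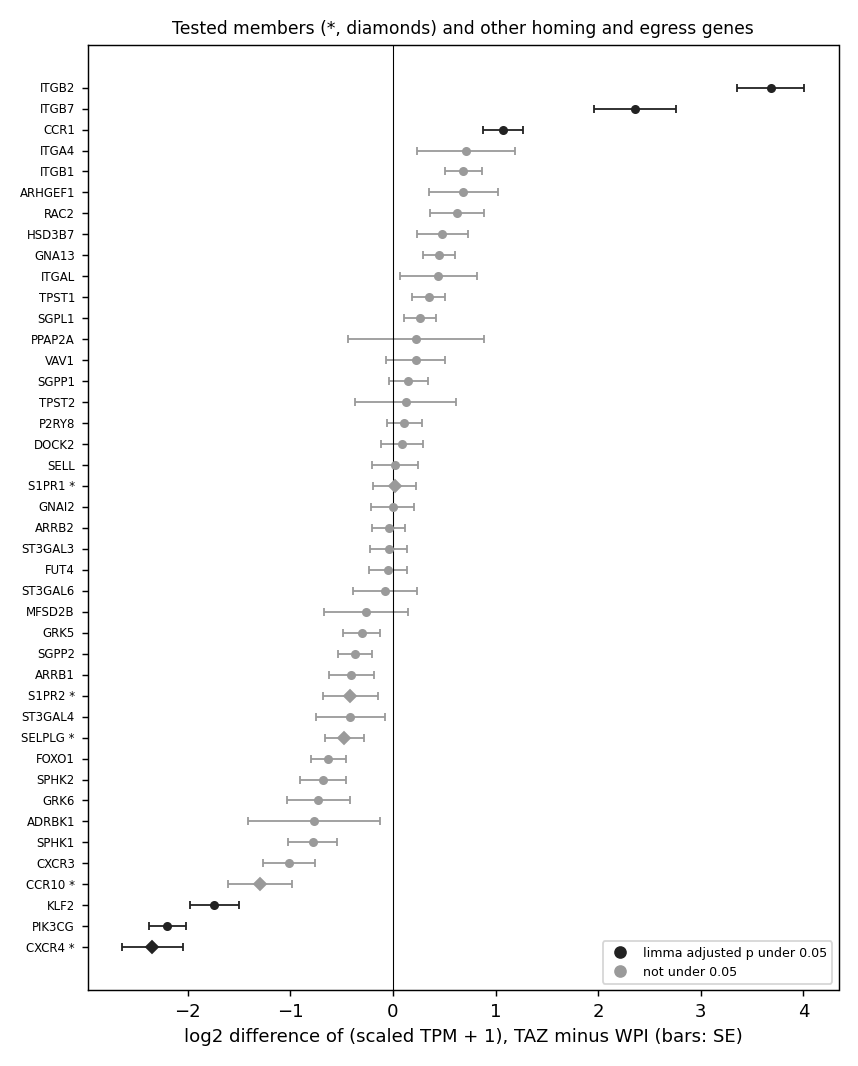
Log2 difference of (scaled TPM + 1), TAZ minus WPI, with its SE, for the 5 tested members (diamonds, starred) and the 37 tested genes of the wider list (circles); black marks a limma adjusted p under 0.05. CXCR4 lies lowest at -2.35 and ITGB2 highest at 3.68, and the other genes spread between them on both sides of 0.

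Among genes that act on S1PR1, KLF2, the transcription factor known from mouse T cells to maintain S1PR1 expression, fell. It was at 3.25, 3.05 and 1.495 scaled TPM in TAZ, against 11.1, 10.3 and 10.8 in WPI (log2 difference -1.74 ± 0.24; limma adjusted p = 0.0134), while the S1PR1 values of the groups overlapped in the same libraries. KLF2 passed in 8 of 13 other settings, and its adjusted p was 0.0519 without TAZ replicate 2, 0.0532 without WPI replicate 1 and 0.0609 without WPI replicate 2. FOXO1, another activator of S1PR1, had 7.60, 8.27 and 7.52 in TAZ, against 14.6, 12.9 and 10.7 in WPI (adjusted p = 0.126). CD69, which pulls S1PR1 off the surface, was listed at 0 in 4 of 6 libraries and at most 0.0408 in the others.

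Of 7 tested genes of S1P supply and removal, 0 rose and 0 fell (limma, adjusted p), while 2 of the 7, SPHK1 and SPHK2, had an unadjusted p under 0.05, beside 18.0% of all tested genes. SPHK1, a kinase that makes S1P, was among the 3 most abundant genes of the list, at 95.8, 62.5 and 54.0 scaled TPM in TAZ, against 116, 118 and 122 in WPI (log2 difference -0.78 ± 0.24; adjusted p = 0.168). MFSD2B, an S1P exporter of blood cells, had 104, 70.4 and 75.5 in TAZ, against 54.8, 103 and 168 in WPI (adjusted p = 0.767), and its groups overlapped. Of the oxysterol enzymes that make or remove the GPR183 ligand, CH25H and CYP7B1 stayed under 0.18 in every library, and HSD3B7 had 3.11, 2.47 and 1.90 in TAZ, against 2.11, 0.927 and 1.52 in WPI (adjusted p = 0.362).

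Of 7 tested genes that relay receptor signals, 1 fell, beside 0.964% of all tested genes. PIK3CG, the catalytic subunit of the phosphoinositide 3-kinase driven by G protein-coupled receptors, was at 8.13, 8.48 and 7.31 scaled TPM in TAZ, against 47.8, 34.1 and 39.8 in WPI (log2 difference -2.20 ± 0.18; limma adjusted p = 0.00187), and it passed in 13 of 13 other settings. Both G protein subunits on the list, GNAI2 and GNA13, did not pass. None of the 5 tested genes of receptor desensitisation passed; ADRBK1, the kinase GRK2, was uneven within TAZ, at 49.0, 6.38 and 19.4, against 28.9, 32.7 and 36.0 in WPI.

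Of 3 tested other homing receptors, 1 rose, beside 2.25% of all tested genes. This was CCR1, an inflammatory chemokine receptor used by myeloma cells. It was at 9.302, 8.29 and 6.97 scaled TPM in TAZ, against 4.21, 3.22 and 2.74 in WPI (log2 difference 1.07 ± 0.20; limma adjusted p = 0.0419), and the call was lost on leaving out any 1 of the 6 libraries (adjusted p from 0.0537 to 0.185). CCR3 overlaps CCR1 on the opposite strand and moved the other way, as given above. CXCR3, a receptor for interferon-induced chemokines, had 0.746, 0.559 and 0.444 in TAZ, against 3.20, 1.40 and 2.21 in WPI (adjusted p = 0.108).

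Of 6 tested selectins and integrins, 2 rose, beside 2.25% of all tested genes. ITGB2, the beta chain of LFA-1, was at 31.2, 15.6 and 13.4 scaled TPM in TAZ, against 0.491, 0.367 and 0.782 in WPI (log2 difference 3.68 ± 0.33; limma adjusted p = 0.00258), and passed in 13 of 13 other settings. Most of that level lay on the transcript ENST00000498666.1, at 18.2, 15.6 and 13.3 in TAZ, against 0.484, 0.224 and 0.770 in WPI. Its exons 8, 9 and 11, numbered by position, were listed at 0 in every library. In TAZ replicate 1 a further 11.8 lay on the shorter ENST00000475170.1. ENST00000397850.2, annotated with 17 exons, was listed at 0 in every library. The antisense gene ITGB2-AS1 was at 11.6, 10.7 and 4.27 in TAZ, against 0.752, 0.309 and 0.232 in WPI (limma adjusted p = 0.0134). ITGB7, the beta chain that pairs with ITGA4 in gut and marrow homing, was the most abundant gene of the list, at 776, 1320 and 500.3 in TAZ, against 129, 133 and 217 in WPI (log2 difference 2.36 ± 0.40; limma adjusted p = 0.0302). In TAZ replicate 2 most of that level lay on the short transcript ENST00000551319.1, at 933 against 6.83 and 7.12 in the other TAZ libraries; on the full-length ENST00000267082.5 the values were 727, 183 and 459 in TAZ, against 125, 131 and 173 in WPI. ITGB7 did not pass without TAZ replicate 1, TAZ replicate 2, WPI replicate 1 or WPI replicate 2 (adjusted p from 0.0786 to 0.113). ITGA4 had 8.27, 9.76 and 31.5 in TAZ, against 6.47, 9.46 and 8.45 in WPI (adjusted p = 0.474). The selectins SELP and SELE were under 0.03 in every library, and of the 6 tested enzymes that build selectin ligands on SELPLG none passed.

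**Figure D4:**
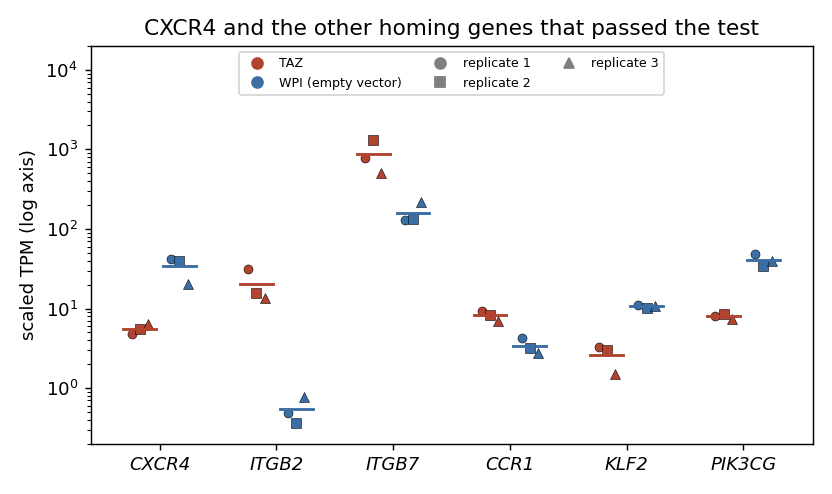
Scaled TPM on a log axis of CXCR4 and of the 5 genes of the wider list that passed the test, in each TAZ (red, left) and WPI (blue, right) library, with bars at the group means. CXCR4, KLF2 and PIK3CG lie lower in all 3 TAZ libraries and ITGB2, ITGB7 and CCR1 higher, with no overlap between the groups in any of the 6 genes. All 6 passed the test in these same libraries, so the lack of overlap is no separate support. Over all tested genes, the groups did not overlap in 24.9%, in either direction.

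The genes whose values over the 6 libraries were most like those of CCR10, the member with the highest mean, were SART1, SDF4, TMEM52, APOO and EIF2S2P4, with Pearson r of 0.996, 0.991, 0.991, 0.991 and 0.990 on log2(scaled TPM + 1) among the 19390 tested genes. For CXCR4, looked up after its values were seen, they were CTCFL, RP11-510C10.3, PARK2, CLEC1A and KCNIP2, with r from 0.997 to 0.998. All points share the same 6 libraries and the split into groups, so these values describe likeness only. CLEC1A, a C-type lectin, was at 0.365, 0.622 and 0.555 scaled TPM in TAZ, against 4.58, 3.97 and 2.34 in WPI, and shared with CXCR4 the lower value in WPI replicate 3.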

How the data were processed

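Polyadenylated RNA of KMM1 cells was sequenced on an Ion Torrent Proton, per the labels' protocols. Libraries were run in pairs on a chip; the labels do not name the pairs, so chip could not enter the fit. The submitters' processing notes name the build hg19 and the tools STAR 2.3.0, Bowtie2 2.0.0 and StringTie 1.3.3b. Per the file headers, StringTie estimated only the transcripts of a supplied annotation, 1 run per library; its release and the use of strand are not given in the sources used here. For each transcript the authors deposited coverage (reads per base on average), FPKM and TPM. These are not counts, and no count test was run.

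TPM was summed per gene identifier and divided by a factor per library, the median ratio to the geometric mean over the 28148 genes above 0 in every library (0.962, 1.20 and 1.23 in TAZ; 0.994, 0.944 and 0.873 in WPI). The megabases of aligned sequence per library came from the constant ratio of coverage to FPKM. Aligned bases per gene were the coverage of each transcript multiplied by the length of its exons, summed over transcripts. Genes averaging 1 TPM or more were tested with limma 3.58.1 in R 4.3.3 (trend and robust, no block) on log2(scaled TPM + 1), a scale that understates changes of low genes. Members under the filter got an exact two-sided permutation test. The procedure was tested on simulated data.

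The members and the wider list were chosen with earlier results of these data known. Named genes were all members, their ligands, the genes of the wider list past the threshold, its 3 most abundant genes, genes overlapping a member, and the 5 genes most like the most abundant member; any other gene given with values was chosen after they were seen. The alternatives were other scalings, pseudocounts and filters, limma without trend, a replicate block and leaving out each library.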

Additional observations from a re-analysis of the deposited data

How the results depend on the processing

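No member was called higher under any of the 13 alternatives. The count of members called lower, 1, was 0 with the replicate block and ran from 0 (without TAZ replicate 2) to 2 (without WPI replicate 1) on leaving out 1 library. The counts of the wider list, 3 higher and 2 lower, were 1 and 1 with no filter on abundance, 1 and 1 with the replicate block, and ran from 1 to 2 and from 1 to 3 on leaving out 1 library. Over all tested genes, 623 called genes became 352 with no filter, 236 with the replicate block and 278 to 774 on leaving out 1 library (278 without TAZ replicate 2, 331 without TAZ replicate 3, 349 without WPI replicate 2 and 410 without WPI replicate 1). Under the replicate block, which adds terms for the replicate numbers, CXCR4 stood at -2.35 with a limma adjusted p of 0.0748, and that of KLF2 was 0.0721. Deviations from the group means correlated at 0.0040, -0.024 and -0.055 for replicates 1, 2 and 3. The labels do not say whether equal numbers mark a shared chip or culture, and these correlations cannot decide it. The log2 difference of CXCR4 lay between -2.68 and -2.11 over the 13 alternatives and was called in 11; that of CCR10 lay between -1.59 and -1.05 over 14, called in 1. S1PR2 (-0.60 to -0.17) and SELPLG (-0.64 to -0.23) were called in none of 13. S1PR1 ran from -0.14 to 0.16 on leaving out 1 library: it turned to -0.14 without TAZ replicate 2 and to -0.06 without WPI replicate 3 and was called in none of 12. The cause of these changes was not tested. Depth limits CXCL12, S1PR4 and GPR183, each read from at most 168 aligned bases a library.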
